A study of Caenorhabditis elegans with 2 samples.

Results

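The 76 genes described here are homeobox genes of C. elegans outside the ONECUT and CUX group, among 19973 protein-coding genes of the nuclear chromosomes. They were chosen by symbol: 57 are protein-coding genes named ceh with a number, leaving out ceh-21, ceh-38, ceh-39, ceh-41, ceh-44, ceh-48 and ceh-49. The other 19 are lin-39, mab-5, egl-5, nob-1, php-3, pal-1, vab-7, unc-4, unc-30, unc-42, unc-86, mec-3, lin-11, ttx-1, ttx-3, cog-1, alr-1, unc-62 and zag-1. The rule used no measured value.

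The data are chromatin immunoprecipitation with sequencing (ChIP-seq) of CEH-90, itself the product of a homeobox gene, recovered with an antibody against GFP. All chromatin came from whole hermaphrodite L1 larvae of strain OP210, genotype unc-119(ed3) III; wgIs210, whose transgene expresses CEH-90 with a GFP-FLAG tag at the C terminus. The larvae were harvested 6 hours after synchronization, which the labels give as starved L1 after bleaching. There was 1 group with 2 biological replicates, whose cultures the labels do not describe, and no second condition. The labels do not give the promoter or the copy number of the transgene, and whole larvae mix all tissues, so a site used in few cells and a weak site in many cells cannot be told apart.

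A homeobox encodes a homeodomain, a compact helical domain that reads short, often A- and T-rich DNA words. In the worm these genes specify position along the body, muscle and pharynx, and above all the identity of individual neuron classes. Homeobox genes are frequently regulated by other homeobox factors or by their own products, through sites upstream of the start and inside introns.

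A peak is a stretch that the authors' caller listed, and its summit is the position of highest enrichment. Signal is the authors' enrichment value for a peak, whose scale is not stated, so it was used to rank peaks within 1 list, with rank 1 the strongest. The pooled list, made by the authors from both replicates, held 30000 peaks with signals from 20.6 to 2374 and a median of 27.8, and it includes background by design. The list that passed the authors' threshold on the irreproducible discovery rate (IDR list) held 765 peaks, which were the 765 strongest of the pooled list and reached down to a signal of 71.4. The promoter window of a gene was the stretch between 1000 bp upstream and 200 bp downstream of each of its annotated starts. The lists of single replicates held 23796 peaks for replicate 1, with a median signal of 13.6, and 30000 for replicate 2, with a median of 17.1. Read depth is unknown, because the lists hold no read counts.

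The sequences below show the DNA under the summits that carry the results: ceh-90 as the gene of the factor itself, ceh-23 as the strongest promoter summit, unc-62 for a summit in its own intron, upstream of an internal start, cog-1 and ceh-58 as the only promoter summits of these genes with TAATTA, a common homeodomain core, and ceh-34 as the strongest intron summit. A contrast is the strongest IDR promoter summit outside exons and off the chromosome whose sequence is not printed here, that held GGCCAC, at the gene Y65A5A.2, rank 6 with a signal of 1528. The cog-1 and ceh-58 sequences were chosen after their motif had been seen. Each is the forward strand of ce11, 101 bases centred on the summit, and capitals mark a copy of either motif, read on either strand.
ceh-90 upstream, chrX:14157483-14157583: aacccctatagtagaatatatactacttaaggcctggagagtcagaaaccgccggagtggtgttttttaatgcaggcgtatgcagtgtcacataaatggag
ceh-23 upstream, chrIII:7838937-7839037: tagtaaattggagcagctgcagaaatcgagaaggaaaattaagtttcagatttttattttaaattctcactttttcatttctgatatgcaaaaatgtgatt
unc-62 internal start, chrV:4500902-4501002: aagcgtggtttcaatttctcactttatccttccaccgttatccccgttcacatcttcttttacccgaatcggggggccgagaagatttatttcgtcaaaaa
cog-1 upstream, chrII:14902261-14902361: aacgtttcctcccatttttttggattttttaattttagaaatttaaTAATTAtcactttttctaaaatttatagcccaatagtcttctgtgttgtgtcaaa
ceh-58 upstream, chrII:10370388-10370488: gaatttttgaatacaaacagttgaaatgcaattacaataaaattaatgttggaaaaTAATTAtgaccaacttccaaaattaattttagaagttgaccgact
ceh-34 intron, chrV:5317975-5318075: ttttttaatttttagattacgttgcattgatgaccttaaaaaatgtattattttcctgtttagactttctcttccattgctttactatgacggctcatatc
Y65A5A.2 upstream, the contrast, chrIV:16415226-16415326: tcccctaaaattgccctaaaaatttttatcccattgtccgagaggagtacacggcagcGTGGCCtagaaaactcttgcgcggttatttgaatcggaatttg

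None of the 76 genes had an IDR summit in a promoter window, against 891 of the 19973 protein-coding genes (4.46%). An intron IDR summit was also found at 0 of the 76, against 112 of 19287 genes with an intron (0.581%). The count of 0 allows a share of up to 3.95% by the 3-count limit, and the two-sided exact (Clopper-Pearson) 95% bound was 4.74%, and the 4.46% of all genes lies between these bounds, so 76 genes barely resolve a share of that size. The ONECUT and CUX group holds 2 genes with an IDR promoter summit, ceh-38, which the rule leaves out by name, and cux-7, whose symbol the rule does not cover. The rule was written with earlier results known, so the 0 is a description. A slightly looser threshold, an authors' q of 0.05 or less, was met by 830 pooled peaks, among them all 765 IDR peaks. Under it 0 of the 76 had a promoter summit, against 946 of all genes (4.74%), which is nearly the same count again. No test was made for any share here, because a set of genes chosen by name has no replicate groups to compare, and all intervals cover counting error over genes only.

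Weaker summits were present. A pooled-list summit lay in the promoter window of 22 of the 76 genes (28.9%, exact 95% interval 19.1 to 40.5), against 8278 of all genes (41.4%). Their signals ran from 21.1 to 48.7 with a median of 31.8, all below the weakest IDR peak, and the lowest q was 0.424. No promoter summit ranked 2000 or better, a level that 1693 of all genes reached (8.48%) and that was chosen after the best rank of these genes, 2164, had been seen. At rank 5000 or better there were 6 genes (7.89%), against 2924 of all genes (14.6%). At rank 10000 the count was 11 (14.5%) against 4342 (21.7%), and at rank 20000 it was 17 (22.4%) against 6552 (32.8%). Among genes without a promoter summit of rank 2000 or better, 6585 of 18280 (36.0%) had a weaker one, beside the 22 of these 76. Where a gene had a summit, the median best rank was 9962.5 with quartiles of 3774 and 19195, against a median of 9250.5 for all genes with one. The gap in medians was wider under each other setting tried, though these settings reuse overlapping genes and the same data. It was widest with a window of 500 bp, at 16360 against 9202.5, and with one of 2000 bp, at 16236 against 9124.

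**Figure D1:**
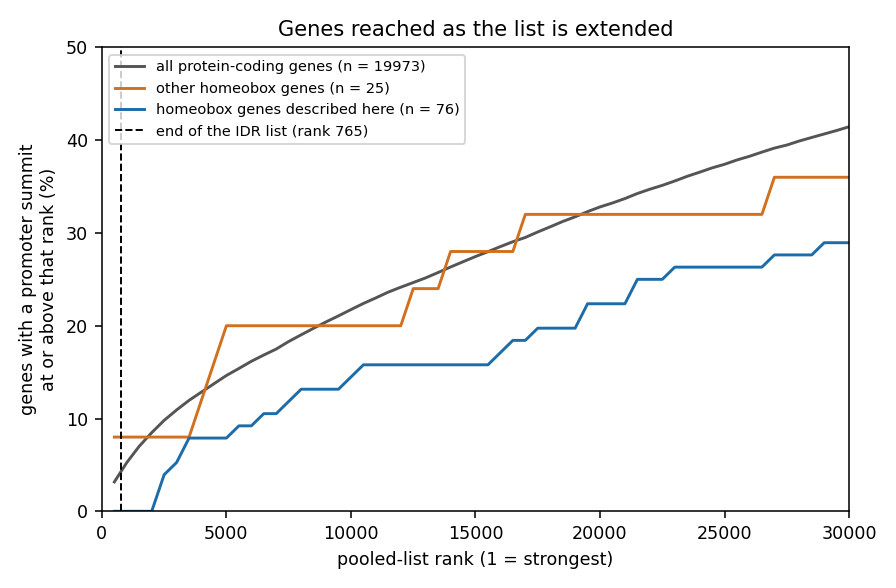
Share of genes, in percent, with a promoter summit at or above each rank of the pooled list, for the 76 homeobox genes, for all 19973 protein-coding genes and for 25 other homeobox genes; the horizontal axis is the rank, 1 being strongest. The line of the homeobox genes leaves 0 only past rank 2000 and ends at 28.9%, while that of all genes ends at 41.4%.

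The X chromosome, where few genes have IDR summits, held 17 of the 76 genes (22.4%) and 13.7% of all protein-coding genes. Among genes on X, 32 of 2731 had an IDR promoter summit (1.17%) and 935 had a pooled one (34.2%), the latter beside 5 of the 17 homeobox genes there (29.4%). On the autosomes the shares over all genes were 4.98% and 42.6%, and 17 of the 59 autosomal homeobox genes had a pooled promoter summit (28.8%). The homeobox share was thus below that of all genes on the autosomes alone, and the part of chromosome in the counts was not tested further.

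**Figure D2:**
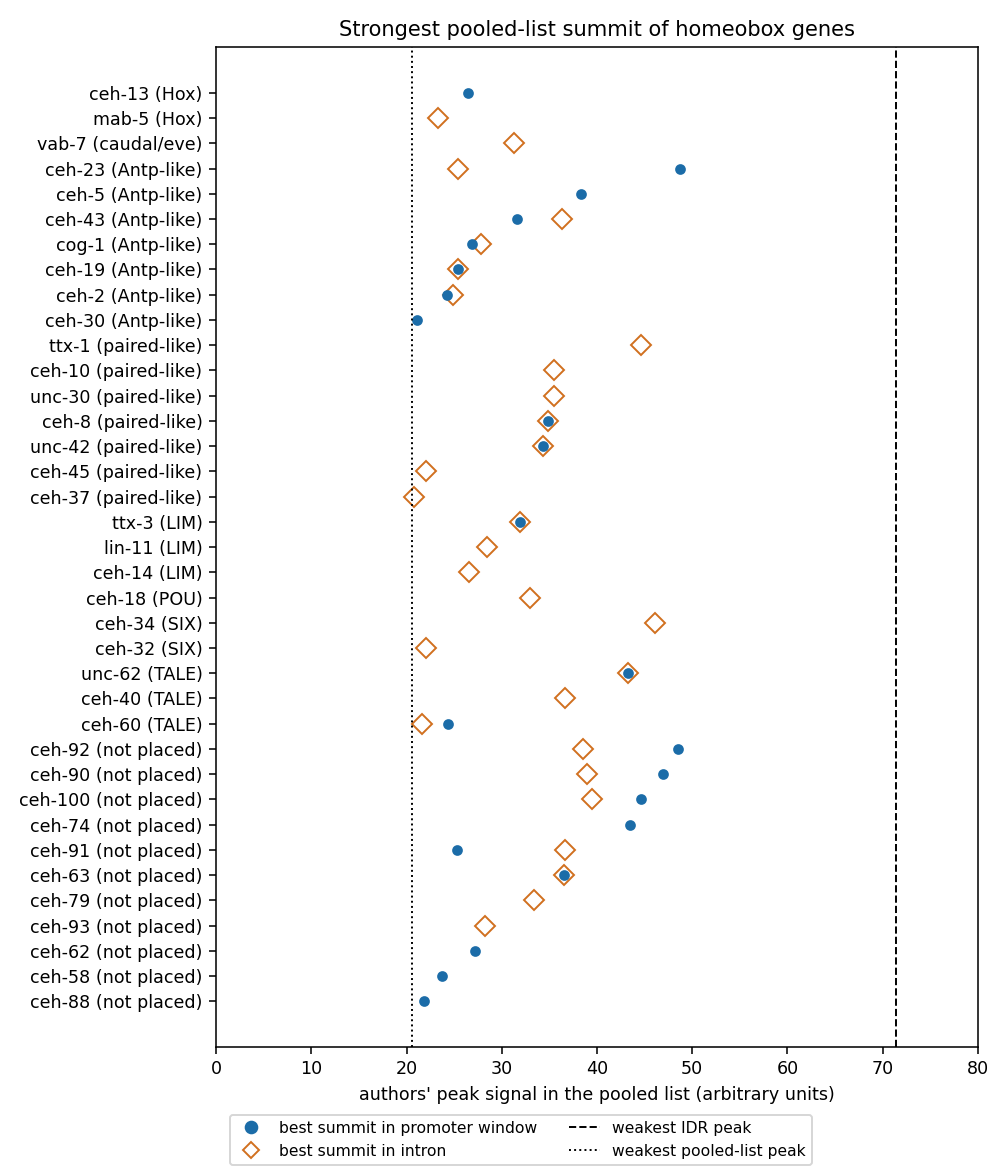
Authors' signal of the strongest pooled-list summit in the promoter window (filled points) and in an intron (open diamonds) of the 37 homeobox genes that had one, ordered by class. The dotted line is the weakest peak of the pooled list, 20.6, and the dashed line is the weakest IDR peak, 71.4, which no point reaches.

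The Hox genes, which pattern the body axis, all lie on chromosome III, and 1 of 6 had a pooled promoter summit, against 41.4% of all genes. With 6 genes, no difference from that share can be resolved. The Hox gene with a promoter summit was ceh-13, the labial-type anterior one, with a summit 411 bp upstream that ranked 17092 and had a pooled signal of 26.4. The replicate 1 list had a promoter summit of signal 11.2 there and replicate 2 one of 20.9, the latter not within 100 bp of the pooled summit. mab-5, which acts in the posterior, had an intron summit of rank 23484 and signal 23.3, with none within 100 bp in either replicate list. lin-39, the midbody Hox gene, and egl-5 and php-3, both of the Abdominal-B type, had no summit in promoter or intron in any of the 3 lists, and nob-1, of the same type, had none in the pooled list. The list's strongest peak, rank 1, lay at the start of cux-7. It was 13954 bp downstream of the nearest of the 2 starts of lin-39, past the far end of that gene. ceh-13 and lin-39 share 1 upstream gap of 19027 bp with 2 pooled summits, the better being that of ceh-13 at rank 17092. Of the caudal and even-skipped types, pal-1 had no pooled summit. vab-7, the even-skipped gene of posterior patterning and DB motor neurons, had an intron summit of rank 10560 and signal 31.2, matched in replicate 2 only.

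Among the NK and other Antennapedia-like genes, 7 of 17 had a pooled promoter summit, against 41.4% of all genes. An intron summit was found at 5, against 26.9% of all genes with an intron. The strongest of all promoter summits was that of ceh-23, a gene expressed in a few neuron classes, on chromosome III at 7838772 to 7839201, 605 bp upstream of its start. Its pooled signal was 48.7, its signal in replicate 1 was 21 and in replicate 2 was 27.2, so both replicates listed it. The summit of ceh-5, a Vax-type gene, lay 530 bp upstream in an intron of ocrl-1, with a pooled signal of 38.3 and signals of 18.7 and 20.3 in replicates 1 and 2. ceh-43, the Distal-less gene, had a promoter summit of pooled signal 31.7 that matched one of 17.9 in replicate 2 only. cog-1, an Nkx6-type gene of neuron identity, had a pooled signal of 26.9 at 182 bp upstream, with a summit of 14.2 in replicate 2 and none in replicate 1. Replicate 2 also had a stronger summit of 23.5 elsewhere in the windows. Weaker summits belonged to ceh-19, which specifies the MC neurons of the pharynx, with a pooled signal of 25.4, to ceh-2, an EMX-type gene, with 24.2, and to ceh-30, known for keeping the male CEM neurons alive, with 21.1. These 3 had ranks of 19004, 21497 and 28623 among the 30000 peaks, and the ceh-19 summit also lies in its own intron.

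Of the 13 paired-like genes, 2 had a promoter summit, against 41.4% of all genes. An intron summit was found at 7, against 26.9% of all genes with an intron. The promoter summits belonged to ceh-8, an Rx-type gene, with a signal of 34.9 at rank 7220, and to unc-42, which fixes the identity of command interneurons, with 34.3 at rank 7672. Both lie in introns of these genes, upstream of an annotated start, and are also counted as their intron summits. unc-42 had summits in the pooled list and replicate 2 list and none in replicate 1. The best intron summit was that of ttx-1, the Otx gene of the AFD thermosensory neuron, 1049 bp downstream of the start, with a pooled signal of 44.6 at rank 2949 and 31.8 in replicate 2. No replicate 1 summit lay within 100 bp of it, although that list had one of 11.4 elsewhere in the introns. unc-30, the Pitx gene of GABA motor neurons, had an intron summit of pooled signal 35.4, matched at 12 in replicate 1 and 23.8 in replicate 2. ceh-10, a Chx10-type gene, had an intron summit of pooled signal 35.5 that also lies in an intron of polq-1 and was matched in replicate 1 only.

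Of the 4 LIM genes, ttx-3, the selector gene of the AIY interneuron, had a promoter summit 374 bp upstream of an annotated start, with a pooled signal of 31.9 and 11.3 and 18.8 in replicates 1 and 2. The same summit is in a ttx-3 intron. lin-11 and ceh-14, both LIM genes of neuron identity, had intron summits only, of pooled signal 28.5 and 26.5, the latter matched in replicate 2 only. mec-3, the touch neuron gene, had none in the pooled list. Of the 3 POU genes, ceh-18 had an intron summit of signal 33.0, matched in replicate 2 only, and ceh-6 and unc-86 had none in the pooled list. Of the 3 sine oculis-type genes, ceh-34, which specifies pharyngeal neurons, had the strongest intron summit, on chromosome V at 5317810 to 5318239, with a pooled signal of 46.1 at rank 2637 and a q of 0.527. Both replicates listed it, at 17.3 in replicate 1 and 24.3 in replicate 2. ceh-32, another gene of this type, had an intron summit of pooled signal 22 at rank 26392, matched in replicate 2 only. Of the 4 TALE genes, unc-62, the Meis and homothorax orthologue, had 7 summits in its promoter windows, more than any other gene of the set, but it also has the most annotated starts, 15, and so the most sequence searched. The strongest lay 260 bp upstream of an internal start, in its own intron, with a pooled signal of 43.2 at rank 3322 and 19.3 in replicate 1; replicate 2 had 22.2, elsewhere in the windows. ceh-40, a PBC gene, had an intron summit of signal 36.6, matched in replicate 1 only, and ceh-60, also PBC, had a promoter summit of 24.4 in its own exon. zag-1, the zinc finger gene of the ZEB type, had no promoter or intron summit in any of the 3 lists.

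Of the 23 genes not placed in a class here, 9 had a promoter summit, against 41.4% of all genes, and several of these summits were among the strongest. The ceh-92 summit ranked 2197 with a pooled signal of 48.5, but lies in an exon of Y66D12A.6, and its nearest start is that of Y66D12A.7. Its signal was 22.3 in replicate 1, and replicate 2 had no summit within 100 bp. The ceh-100 summit, at rank 2941 with a pooled signal of 44.7, was matched at 38.4 in replicate 2 alone, and its nearest start is that of lips-15. The ceh-74 summit, in an intron of cest-2.3, had a pooled signal of 43.5, with 14.7 in replicate 1 and 26.9 in replicate 2. ceh-63 had 1 summit of pooled signal 36.5, in its promoter window, in its own intron and in the promoter window of C02F12.5, matched at 12.4 and 18.7 in replicates 1 and 2. Besides ceh-90, the others were ceh-62 with a pooled signal of 27.2, ceh-91 with 25.3, ceh-58 with 23.7 and ceh-88 with 21.8.

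ceh-90, the gene of the factor itself, lies on X and had 1 pooled summit in its promoter window and 1 in an intron, neither of them in the IDR list. The first, at 14157318 to 14157747, lay 520 bp upstream of the start between genes, with a pooled signal of 46.9 at rank 2486 and a q of 0.495. Replicate 2 had a summit of 26.5 there, and replicate 1 had none. The second, at 14155778 to 14156207, had its summit 1020 bp downstream of the start and a pooled signal of 38.9. That summit lay in a short intron between exons at 896 to 991 bp and 1037 to 1108 bp, and the peak also covers these exons. Replicate 2 had a summit of 21.4 within 100 bp, but not in an intron, and replicate 1 had none within 100 bp. The strain carries transgenic ceh-90 beside the native gene, and the lists cannot separate copies of the same sequence, so the part of the transgene in these values was not tested.

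**Figure D3:**
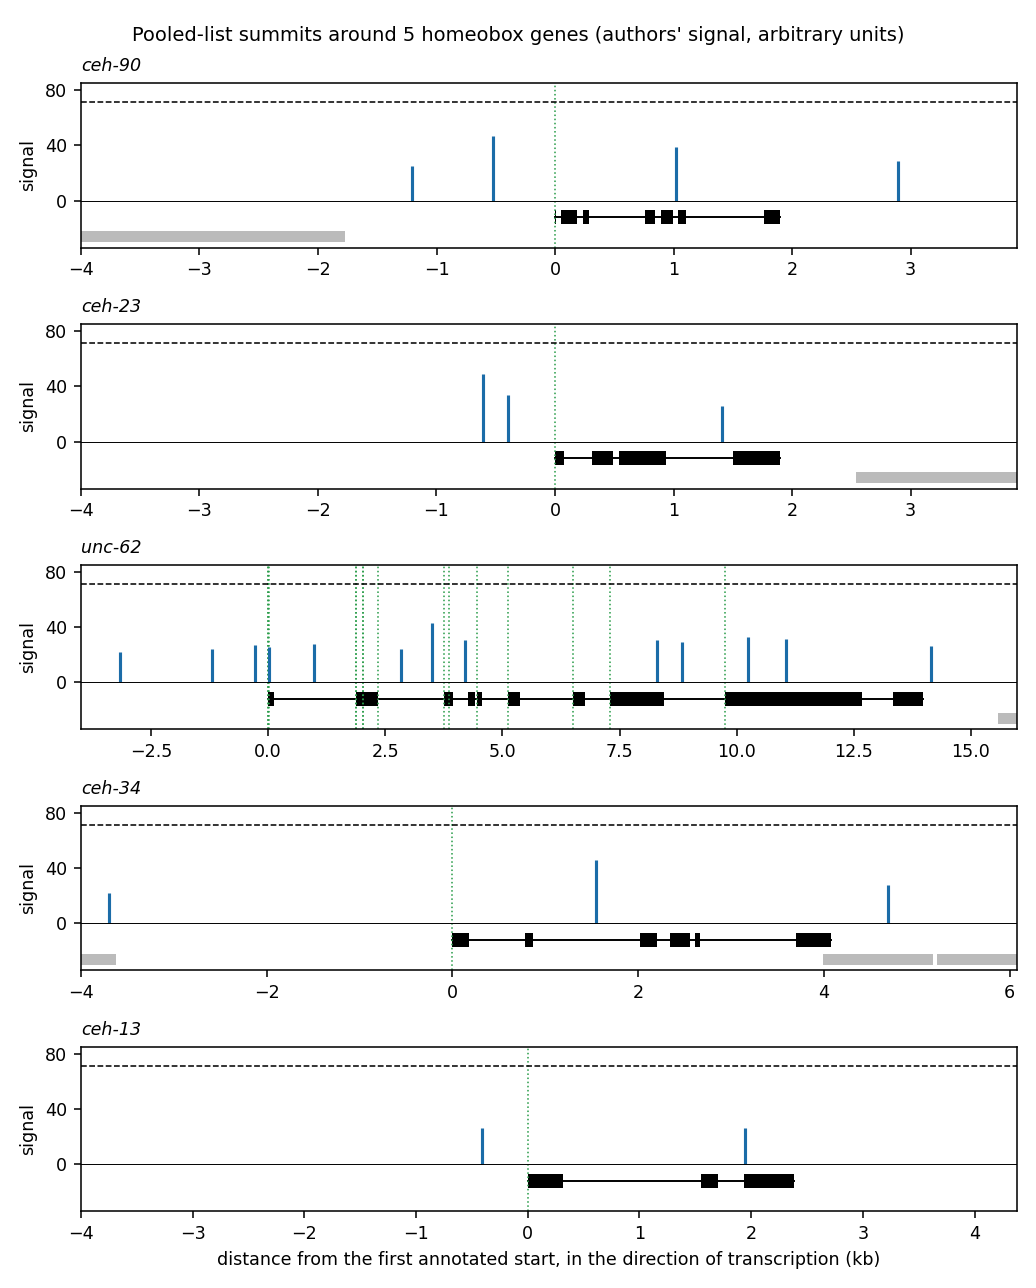
Pooled-list summits around 5 homeobox genes, with distance from the first annotated start in kb on the horizontal axis and authors' signal on the vertical axis. Dark boxes are exons, grey bars are other protein-coding genes, green dotted lines are annotated starts, and the dashed line is the weakest IDR peak, 71.4, which no homeobox summit shown reaches.

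The replicates listed these promoter summits unevenly. Of the 22, 5 had a summit within 100 bp in both replicate lists (22.7%), namely ceh-23, ceh-74, ceh-5, ceh-63 and ttx-3. Over all genes with a pooled promoter summit, 3202 of 8278 were matched in both (38.7%), and among those weaker than rank 2000 it was 1758 of 6585 (26.7%), close to the share of the homeobox genes. A further 7 were matched in replicate 1 only and 8 in replicate 2 only, and 2, ceh-62 and ceh-60, in neither. The lists differ in length, so ranks are comparable only roughly, but within a gene they could lie far apart. The best summit anywhere in the window of ceh-92 ranked 2107 in replicate 1 and 26100 in replicate 2. In the windows of ceh-8 the best ranked 1498 and 14961. These are the best of each list and need not be the same site. For both genes replicate 2 had no summit within 100 bp of the pooled one. The strongest in a single list was ceh-100 in replicate 2, at rank 925. Counting a summit anywhere in the window, 13 genes had one in both replicate lists. Of the genes without a pooled promoter summit, 3 had one in replicate 1 alone, namely ceh-27, ceh-9 and mec-3, and 8 in replicate 2 alone, among them alr-1, ttx-1 and unc-30. No promoter summit in any of the 3 lists was found for 43 genes (56.6%), against 9129 of all genes (45.7%).

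**Figure D4:**
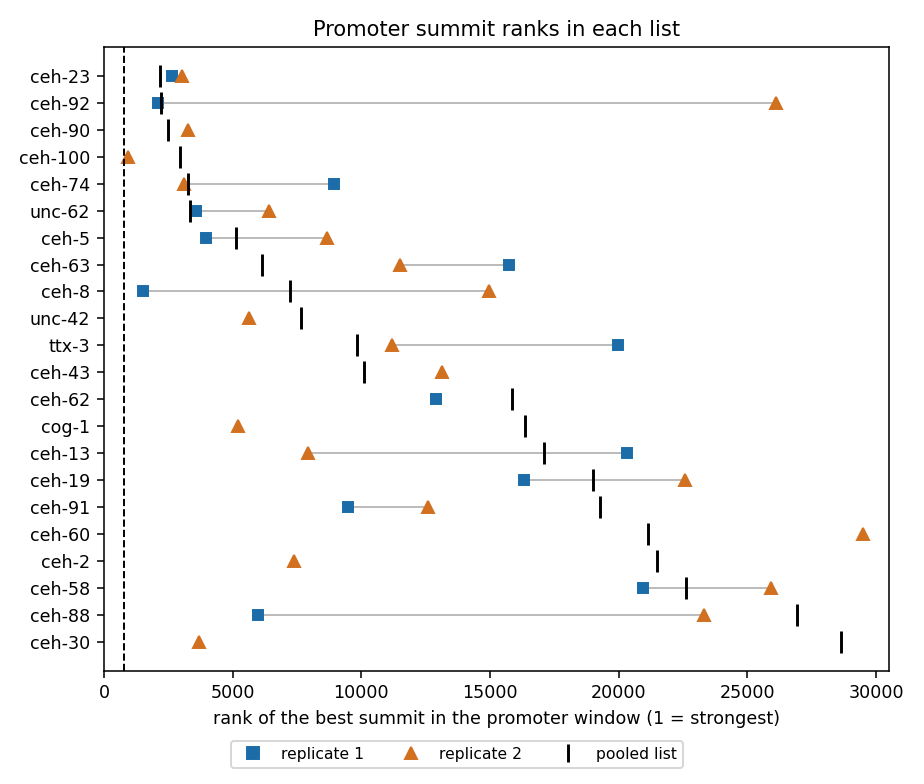
Rank of the best summit in the promoter window of the 22 homeobox genes, in the list of replicate 1 (squares), replicate 2 (triangles) and the pooled list (black bars). The horizontal axis is the rank, 1 being strongest, grey lines join the replicates of a gene, and a missing symbol means that the list had no summit there; the dashed line is rank 765, the length of the IDR list.

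Of the 22 promoter summits, 20 lay upstream of the nearest start of the gene (90.9%), against 7043 of 8278 over all genes (85.1%), in a window that itself lies mostly upstream. Their median position was -392.5 bp. The windows held 38 summits in all, and 15 genes had 1. For 20 genes the nearest start to the summit was the gene's own, and 3 summits also lay in the window of another gene.

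Intron summits were found more often than over all genes, at 30 of 76 genes (39.5%, exact 95% interval 28.4 to 51.4) against 5179 of 19287 (26.9%). These introns were also long, with a median total of 1743 bp per gene against 722 bp. Per length the order turned, with 55 summits over 204 kb (0.269 per kb) against 0.327 per kb over all genes with an intron. Intron signals ran from 20.8 to 46.1 at ranks from 2637 to 29573, and 8 of the 30 best summits were matched in both replicates (26.7%), against 1576 of 5179 over all genes (30.4%). A promoter summit, an intron summit or both were present at 37 genes (48.7%), against 10133 of all genes (50.7%). Both were present at 15 genes, and in 6 of these the same summit served as both.

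Upstream gaps, the sequence up to the neighbouring gene, were long as well, with a median of 3343 bp over the 71 genes that have one, against 1058 bp. Of these 71, 36 had a pooled summit somewhere in the gap (50.7%), against 8043 of 18597 genes (43.2%), and 0 had an IDR summit, against 4.74%. Per kb the gaps held 0.232 summits against 0.378. Longer gaps hold more sequence far from a start, so this density compares unlike stretches. A gap between divergent genes, such as that of ceh-13 and lin-39, was counted for both. The strongest gap summits were those of ceh-58, with a signal of 58.1 at rank 1276, and of ceh-62, with 50.6 at rank 1921. They lay far from the start, at -12666 bp and -7041 bp, the latter near the neighbouring gene at the end of a 7257 bp gap. Next came the ceh-23 promoter summit at -605 bp, rank 2164, and a unc-62 summit at -7889 bp, rank 2170, each with a signal of 48.7. The distance from a homeobox gene's start to the nearest IDR summit had a median of 41819.5 bp, against 54016 bp over all genes. It was within 5000 bp for 3 of them (3.95%), ceh-10 at 4100 bp, ceh-8 at 4239 bp and ceh-89 at 4942 bp, against 9.89% of all genes, and these summits were nearest to the starts of polq-1, nol-16 and akt-2.

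No summit in promoter or intron of any of the 3 lists was found at 24 of the 76 genes (31.6%), against 7162 of all genes (35.9%). Besides lin-39, egl-5, php-3, unc-86 and zag-1 these were ceh-1, ceh-7, ceh-17, ceh-20, ceh-22, ceh-31, ceh-33, ceh-51, ceh-53, ceh-54, ceh-75, ceh-81, ceh-82, ceh-83, ceh-84, ceh-86, ceh-87, ceh-89 and ceh-99. ceh-22 is the Nkx2-type gene of pharyngeal muscle and ceh-20 the PBC partner of the Hox proteins. In the pooled list alone, 39 of the 76 had none in either place, and these 39 include the 24.

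A list of 25 other homeobox genes was set beside these. It held 2 IDR promoter summits, at cux-7 (rank 1, signal 2374) and ceh-38 (rank 420, signal 100.2). The cux-7 summit also lay in the promoter windows of C07H6.2 and lig-4, and the ceh-38 summit in that of malt-1. The nearest start was that of the homeobox gene in both cases. Both genes were counted in the ONECUT and CUX group, of which 7 genes were annotated. These were cux-7 and 6 of the ceh symbols that the rule leaves out, since ceh-44 was not found under that symbol. Among the other 18, 0 had an IDR promoter summit, 6 had a pooled one and the best rank was 4439. In all 25, 9 had a pooled promoter summit (36.0%). With 7 and 18 genes, these shares have wide counting intervals, and their difference was not tested.

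The DNA under the homeobox summits differed from that under IDR summits in base composition. Within 50 bp of the summit the mean GC content was 31.8% for the 22 promoter summits and 32.8% for the 30 intron summits. It was 43.3% for the 765 IDR summits and 34.1% for the 6503 best promoter summits of all genes outside the IDR list, so the homeobox values lie near the latter.

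**Figure D5:**
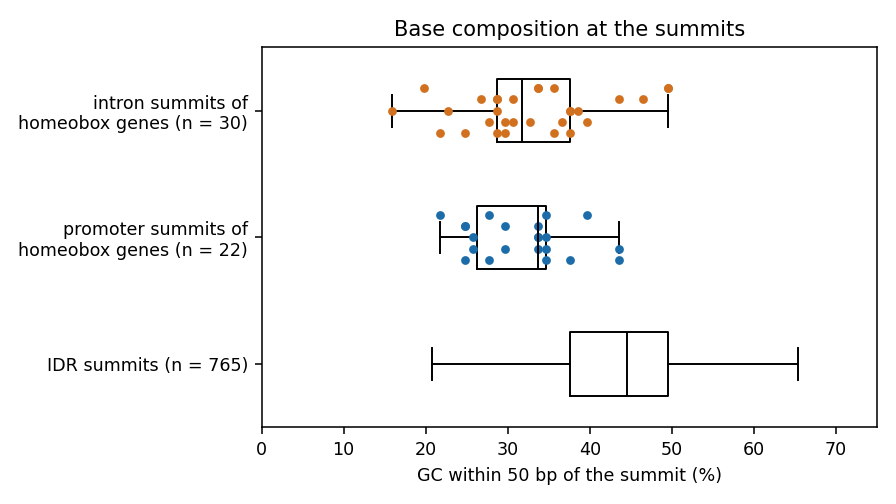
GC content in percent of the 101 bases around summits: promoter and intron summits of the homeobox genes, and IDR summits. Boxes are quartiles with the median, whiskers reach the last value inside the Tukey fences with outliers not drawn, and points are single homeobox summits, most of which lie below the median of the IDR summits.

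Letters of 3 short motifs were searched on both strands, and none contains another. The first was GGCCAC, taken from earlier results on these IDR peaks. The second, from the same source, was ACGCGC. The last was the homeodomain core TAATTA. Within 50 bp of the summit, GGCCAC was found at 0 of the 22 promoter and 0 of the 30 intron summits. At IDR summits, from which it had been picked, its share was 19.1%, and at other genes' best promoter summits outside the IDR list it was 2.11%. ACGCGC was found at 0 promoter summits and 1 intron summit, that of ceh-91, against 14.0% of IDR summits and 2.89% of the other genes' summits. TAATTA was found at 2 promoter summits, those of cog-1 and ceh-58 printed above, and 1 intron summit, that of unc-30, against 4.71% of IDR summits and 5.90% of the other genes' summits. In whole promoter windows of 1201 bp, GGCCAC occurred in 14 of the 76 homeobox genes (18.4%) and in 17.1% of all genes, so the letters themselves were about as frequent there. ACGCGC occurred in 5 windows (6.58%) against 15.8%, and TAATTA in 31 (40.8%) against 47.3%.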

How the data were processed

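ChIP-seq of CEH-90 in L1 larvae was taken from 4 deposited peak lists in build ce11, 1 for each of 2 replicates, 1 pooled and 1 after an IDR threshold. Per the deposited file descriptions, each list was made from alignments and a control shared by the replicates. The control and the ce10 lists were not analysed here. The IDR threshold, like the aligner and the peak caller, is not given in the sources used here. Signal, as deposited for each peak, has no stated scaling and served only to rank and describe peaks within a list. The authors' q was deposited as -log10 and converted back. Read depth is unknown.

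Summits were placed on gene models of Ensembl release 115, whose genome has the ce11 chromosome lengths, and sequence was read from the RefSeq WBcel235 genome. Coordinates are 1-based. Overlap counting used Python 3.11.15, numpy 2.4.6 and scipy 1.17.1, and was tested on simulated data. Peaks of 2 lists matched when summits lay within 100 bp. Shares have exact binomial intervals at 95%, which cover counting error over genes only. Genes with neighbouring starts share summits.

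The genes, the comparison list and the motifs were chosen with earlier results of these data known. Homeobox classes were written from general knowledge, and ceh-7, ceh-62 and ceh-63 were taken out of their class after the files had been read. The genes named are ceh-90, all with an IDR summit, the 20 with the highest promoter signal, the 10 with the highest intron signal, the Hox genes and those with no pooled summit, and a few further genes were named after their values were seen. Windows, summit matching, the lists used and the q threshold were varied.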

Additional observations from a re-analysis of the deposited data

How the results depend on the processing

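The counts of homeobox genes with an IDR summit in a promoter window or an intron were 0 under every alternative. So was the count with a promoter summit of q 0.05 or less, which makes 17 alternatives together. Several only narrowed a search that had already given 0, so their outcome was fixed. These were the 500 bp window, the nearest start only, the strongest 382 IDR peaks, a q of 0.01, and introns outside promoter windows. The 2000 bp window, the upstream gap and single replicates in place of the pooled list could have given another count. The count with a pooled promoter summit was 22 and became 37 with a 2000 bp window (48.7% of the genes, against 54.0% of all) and 36 anywhere in the upstream gap, a setting added after seeing the data; more sequence was searched in both. Using 1 replicate list alone, it ranged from 17 to 29. The median best rank of 9962.5 (9250.5 over all genes) became 16360 with a 500 bp window (9202.5), 16236 with a 2000 bp window (9124) and 12991 with the nearest start only (10285.5). It was 11657 without replicate 2 (7459) and 13152 without replicate 1 (9811). The homeobox median was the weaker in all 5 alternatives, but these reuse the same data and overlapping genes and are not 5 separate results. The medians rest on few genes, 15 with the 500 bp window and 37 with the 2000 bp window, and have no interval. The cause was not tested. Ranks of single replicates come from lists of different length. Summits matched in both replicates were 5, and 8 within 200 bp. Of 57 alternative ranks of single genes, 19 were unchanged, 20 were stronger and 18 weaker. Restriction to genes without a promoter summit of rank 2000 or better was also added after seeing the data and changed no count of these genes. No paired analysis was possible because there is 1 group. The lists give no read counts, so a weak site cannot be told from background. A listing in both replicates does not settle this, because most peaks of the replicate lists are themselves weak. A q of 0.05 or less was reached by 1022 of 23796 peaks in replicate 1 and 750 of 30000 in replicate 2.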
